A study of Homo sapiens with 6 samples.

Results

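The genes that carry a cell from G1 into S phase were examined for open chromatin in GM12878, a human lymphoblastoid cell line made from B cells by Epstein-Barr virus. The 10 genes were the D-type cyclin genes CCND1, CCND2 and CCND3, the cyclin E gene CCNE1, the kinase genes CDK4 and CDK6, and the inhibitor genes CDKN1A, CDKN1B, CDKN2A and CDKN2C. They were chosen by name, and every peak that overlapped one of the genes or the 10 kb on either side of it (its window) was taken. The windows held 217 of the 211329 peaks in 6 peak lists. Merged over libraries, they formed 53 of the 56447 regions.

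ATAC-seq inserts sequencing adapters into accessible DNA with the Tn5 transposase, so that fragments accumulate at open sites. All 6 bulk libraries came from GM12878 cells fixed in 1% PFA, transposed for 30 min and reverse crosslinked at 65 °C without any antibody. They differed in the reverse crosslinking buffer and in the DNA purification before PCR, with 2 replicates of each of 3 protocols: an SDS buffer with purification (old buffer), a buffer without SDS with purification (new buffer, purified), and a buffer without SDS followed directly by PCR (new buffer, unpurified), which is the bulk MI-ATAC or Pi-ATAC workflow. For that workflow the study's methods also give a changed detergent setting in the lysis buffer, an EDTA quench and removal of the supernatant. Its contrasts with the other protocols thus compare whole workflows. The labels do not say whether replicates came from separate cultures, so the spread between them may be technical. Whatever all the libraries share, such as the fixation and the single cell line, cannot be told apart from the accessibility of the genes.

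In G1, D-type cyclins bind the kinases CDK4 and CDK6, and these complexes phosphorylate the retinoblastoma protein, which then releases E2F transcription factors. Cyclin E with CDK2 completes this step. Inhibitors of the INK4 family, such as the p16 product of CDKN2A and the p18 product of CDKN2C, bind CDK4 and CDK6, whereas p21 (CDKN1A) and p27 (CDKN1B) bind cyclin-CDK complexes. Resting B cells that are transformed by Epstein-Barr virus are known to switch on cyclin D2, and cyclin D1 is not normally made in B cells.

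The sequences below come from regions picked at these genes by strength or by place. For CCND2 they are the strongest promoter region and the only region of its window that was not at a start, for CCND3 the strongest promoter region, and for the remaining genes the 6 regions with the highest mean −log10 q. All were read from the plus strand of GRCh37 (hg19) around the mean summit of the region, without bases of an annotated UTR. At CDKN2C the summit itself lay in the UTR bases left out, and the stretch beside it is shown. The only CCND3 region not at a start lay in a UTR and is not shown. Capitals mark the letters of a searched transcription factor motif on either strand.
CCND2 promoter region, chr12:4381226-4381426: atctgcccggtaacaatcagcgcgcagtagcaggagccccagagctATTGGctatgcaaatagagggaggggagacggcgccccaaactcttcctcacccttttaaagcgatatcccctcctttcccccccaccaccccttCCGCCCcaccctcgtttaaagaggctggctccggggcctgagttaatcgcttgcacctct
CCND2 region before the gene, chr12:4371120-4371320: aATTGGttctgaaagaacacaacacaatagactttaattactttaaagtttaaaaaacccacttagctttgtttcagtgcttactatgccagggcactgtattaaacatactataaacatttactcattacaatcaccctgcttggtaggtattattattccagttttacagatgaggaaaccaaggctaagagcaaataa
CCND3 promoter region, chr6:41909547-41909677: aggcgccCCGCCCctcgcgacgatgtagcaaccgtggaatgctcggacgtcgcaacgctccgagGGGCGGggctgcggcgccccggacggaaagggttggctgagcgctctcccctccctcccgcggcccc
CDK4 promoter region, chr12:58146231-58146375: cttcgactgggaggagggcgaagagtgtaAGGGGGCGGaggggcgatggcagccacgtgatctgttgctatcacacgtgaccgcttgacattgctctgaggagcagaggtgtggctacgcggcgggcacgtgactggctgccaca
CDKN2C promoter region shared with FAF1, chr1:51425940-51426036: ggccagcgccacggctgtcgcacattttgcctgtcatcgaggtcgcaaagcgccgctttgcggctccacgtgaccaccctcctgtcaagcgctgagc
CDK6 intron region, chr7:92260904-92261104: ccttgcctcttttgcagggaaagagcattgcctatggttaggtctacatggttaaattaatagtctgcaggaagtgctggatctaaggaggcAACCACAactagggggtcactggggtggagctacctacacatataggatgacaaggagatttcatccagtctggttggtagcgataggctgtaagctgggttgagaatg
CCNE1 promoter region, chr19:30302589-30302789: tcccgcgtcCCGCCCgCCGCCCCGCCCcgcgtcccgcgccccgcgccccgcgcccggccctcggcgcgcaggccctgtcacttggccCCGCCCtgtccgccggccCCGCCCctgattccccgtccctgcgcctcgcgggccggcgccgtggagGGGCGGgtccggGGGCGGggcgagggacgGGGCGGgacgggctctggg
CDK6 intron region, chr7:92442780-92442980: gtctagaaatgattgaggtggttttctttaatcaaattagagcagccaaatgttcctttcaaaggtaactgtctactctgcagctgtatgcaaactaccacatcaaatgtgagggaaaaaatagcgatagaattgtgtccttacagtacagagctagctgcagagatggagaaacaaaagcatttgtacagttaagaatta
CDK6 region in a non-coding exon, chr7:92271528-92271728: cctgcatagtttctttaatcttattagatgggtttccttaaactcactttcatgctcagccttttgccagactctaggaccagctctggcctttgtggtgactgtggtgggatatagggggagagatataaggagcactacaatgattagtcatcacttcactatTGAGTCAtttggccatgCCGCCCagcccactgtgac

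The printed promoter sequences of CCNE1, CCND3 and CDK4 were rich in G and C, at 86.6%, 74.8% and 62.8%, while the printed CDK6 sequences held 47.8%, 37.3% and 46.3%. The capitals at CCNE1 and CCND3 are letters of SP, the GC box bound by SP-family factors. In the CDK4 promoter they are overlapping letters of CTCF and SP. At the CDK6 region of chr7:92260904-92261104 they are letters of RUNX, a factor family of blood cells, and at chr7:92271528-92271728 letters of AP-1 and SP. The printed sequences of CDKN2C and of the CDK6 region of chr7:92442780-92442980 held none of the searched letters, while the whole window of the CDKN2C region, with the UTR bases left out here, held SP. A match is a description of the letters and not a site that a factor was shown to use.

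The libraries held 30136 to 38023 peaks each. Each list gives the enrichment of a peak's summit with its −log10 p and −log10 q, and the reads at the summit were solved from these. The median summit held 20 to 22 reads in each library and the lowest listed summit 8 or 9. Of the B cell markers reported here, MS4A1 (CD20) had a peak within 1 kb of a start in all 6 libraries, CD79A in 4, CD22 in 3, and CD79B and PAX5 in 1 library each, while BLK had none. Of 6 T cell markers, CD8A alone had such a peak, in all 6 libraries. No epithelial marker of 4 had one, and of 6 erythroid and myeloid markers only CD14, in 4 libraries. The lists hold only peaks past a q value of 0.01, so a gene without a peak is one whose openness was not detectable at this depth.

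CCND1, CCND2 and CCND3 were first compared to find the cyclin D gene with the most open locus. CCND1 had no peak anywhere in its window of 33.3 kb in any of the 6 libraries. CCND2 had 1 to 4 peaks per library in 55.6 kb, and CCND3 had 2 to 4 peaks in 135 kb. In the order of the protocols above, with replicate 1 before replicate 2, peaks covered 1.46%, 0.925%, 2.80%, 1.32%, 1.86% and 2.07% of the CCND2 window. The same libraries covered 0.959%, 0.691%, 1.43%, 0.908%, 0.617% and 0.895% of the CCND3 window. CCND2 was thus above CCND3 in every library, although the ranges of the genes overlapped between libraries.

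The mean coverage was 1.74% ± 0.657 (SD, n = 6) at CCND2, 0.917% ± 0.285 at CCND3 and 0 at CCND1. CCND2 exceeded CCND3 by 0.824 ± 0.492 percentage points, which was higher in 6 of 6 libraries (exact two-sided sign-flip permutation test, p = 0.03125). This p is the smallest that 6 libraries allow. Adjustment over the 3 pairs left it at 0.03125 but could not have raised it, because the 2 pairs with CCND1 had the same p by construction. With CCND1 at 0 in every library the differences of both genes from CCND1 could only be positive, so their test adds nothing to the absence of a CCND1 peak. The comparison treats the 6 libraries of 1 cell line as replicates across protocols. Across 20098 protein-coding genes the median coverage was 0.912%, so CCND3 lay near the median gene and CCND2 above it. CCND1 belonged to the 4164 genes (20.7%) without a peak in the window.

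The order of CCND2 and CCND3 depended on the measure. By peaks per 100 kb, CCND2 was higher by 2.11 ± 1.41 in 6 of 6 libraries (exact sign-flip p = 0.03125). By the percentile of its strongest peak within a library it was lower by a mean difference of -6.23 ± 13.7 points, and CCND2 was the higher gene in 2 of 6 libraries (exact sign-flip p = 0.34375). The 10 kb around the starts alone gave a difference of 1.14 ± 1.07 percentage points in favor of CCND2 in 5 of 6 libraries (exact sign-flip p = 0.0625). Without division by the window length, peaks covered 1299, 936, 1936, 1230, 836 and 1212 bp at CCND3 and 814, 514, 1555, 736, 1032 and 1153 bp at CCND2. CCND3 was higher in 5 of 6 libraries, by 274 ± 280.5 bp (exact sign-flip p = 0.09375). CCND2 was therefore the locus with more peak coverage per length of its shorter window. By the bases covered and by the −log10 q percentile of the strongest peak the order was not settled. By reads at the highest summit CCND2 was above CCND3 in every library, which was not tested. These reads were 30, 27, 32, 28, 37 and 37 at CCND2 and 22, 22, 19, 21, 22 and 27 at CCND3. Unlike the reads, the −log10 q also weighs the local background.

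**Figure D1:**
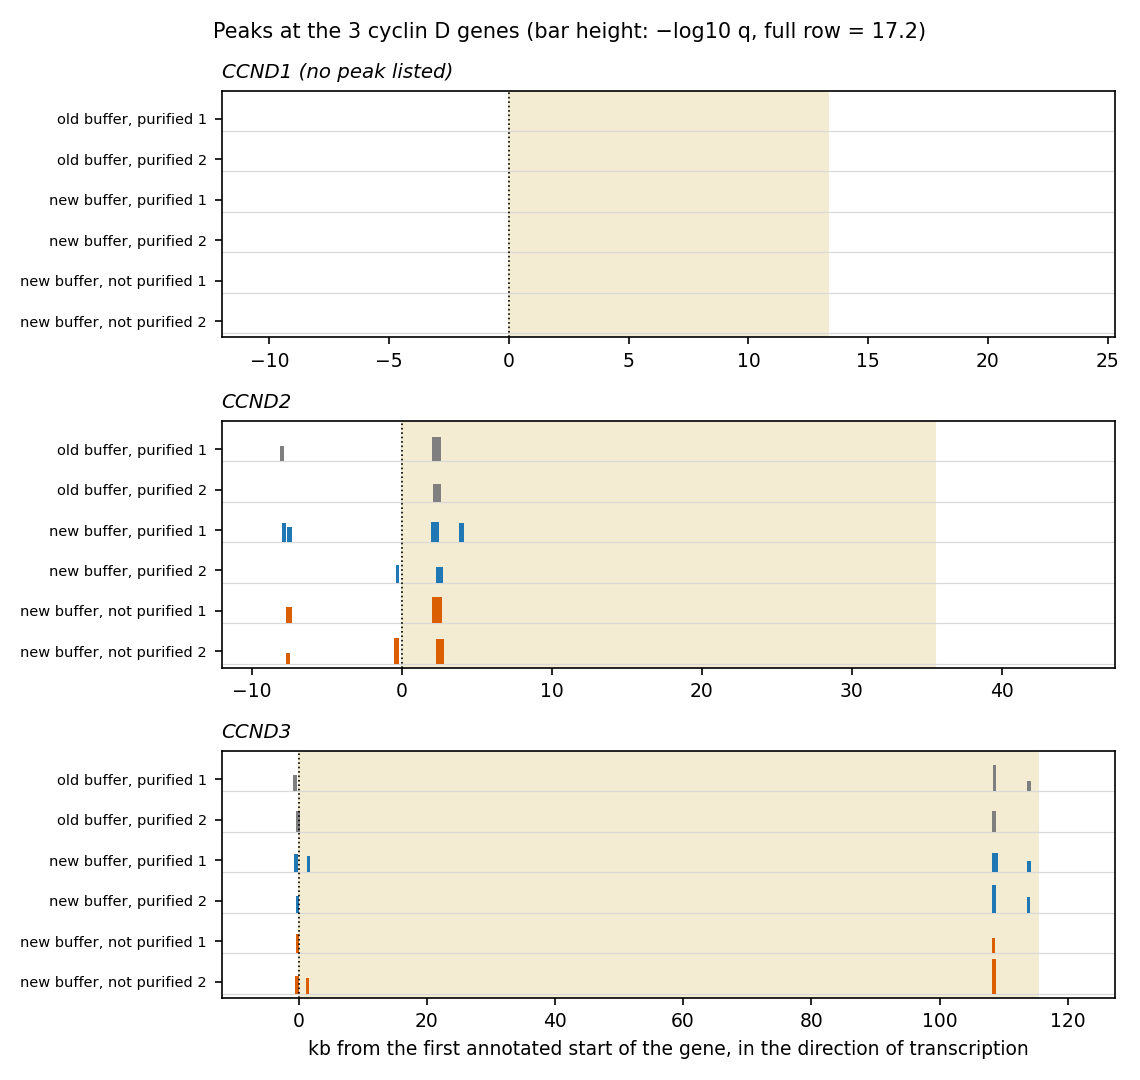
Peaks at CCND1, CCND2 and CCND3, one row per library. The x axis gives kb from the first annotated start in the direction of transcription, bar height is the −log10 q of a peak on 1 scale for all panels, and the shaded area is the gene body. CCND1 has no bar in its window, 1 CCND2 region and 2 CCND3 regions have a bar in every row, and the other CCND3 bars lie near its starts or near its end.

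Cyclin D2 is encoded by CCND2 on the plus strand of chromosome 12. Its only region called in all 6 libraries was chr12:4380972-4381663, which lay in an intron of CCND2 and of the antisense gene CCND2-AS1, with its summit 993 bp before the nearest annotated coding start. Its −log10 q was 10.2 and 7.46 in the old buffer libraries, 8.49 and 6.50 in the new purified ones, and 11.1 and 10.6 in the unpurified ones. By −log10 q these peaks took ranks 15237 to 21376 in their libraries, so the region was of middle strength by that measure. The summits held 27 to 37 reads, above the median summit of 20 to 22 in every library. The promoter region at the first annotated start, chr12:4378412-4378782, was called in replicate 2 of the new purified libraries and in replicate 2 of the unpurified libraries, with 28 and 35 reads. The region at the last annotated start, chr12:4382761-4383103, was called in 1 library with 32 reads. In a CCND2-AS1 intron, 7717 bp before the first CCND2 start, chr12:4370880-4371662 was called in 4 libraries with 12 to 16 reads. CCND2 peaks thus lay around its starts and before them, and the list held none along the rest of the gene body.

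CCND3, which encodes cyclin D3 on the minus strand of chromosome 6, had a region in all 6 libraries at each end of its range of starts. The region of the short transcripts, chr6:41909056-41909857, had −log10 q values of 11.4, 8.71, 8.22, 11.8, 6.59 and 14.6, with 17 to 27 reads at the summit. The region of the most distant start, chr6:42018004-42018729, had values of 7.01, 8.88, 7.81, 7.27, 8.30 and 7.65, and its summit lay in a UTR of the neighboring gene TAF8, a subunit of the general factor TFIID. Both genes have a start there, so the peak cannot be assigned to either. The region of several long transcripts, chr6:42016400-42016811, was called in 2 libraries with 19 and 22 reads. Inside the gene, 4163 bp after the nearest start, chr6:41903945-41904323 lay in a UTR near the end of the gene and was called in 3 libraries, with 12 to 14 reads. Without the peaks at starts of other genes, the CCND3 coverage was 0.488% ± 0.270.

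By the strongest promoter peak the means were 10.5 ± 2.54 for CCND3 and 9.24 ± 1.67 for CCND2 in −log10 q. CCND3 was higher in 4 of 6 libraries, by a mean of 1.31 ± 2.69, a difference within the spread. The mean over all protein-coding genes with a coding start had a median of 5.41, and over the genes with a promoter peak in all 6 libraries a median of 19.1. By −log10 q both cyclin genes were therefore below the typical promoter that every library called.

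CCND1 encodes cyclin D1 on the plus strand of chromosome 11. The nearest peak before its start was 389.6 to 390.9 kb away, and the nearest peak after its end 20.7 to 20.8 kb away, in every library. The second of these had a −log10 q of 4.81 to 9.88. The absence of a peak held for both annotated starts, chr11:69455924-69469242 being the gene body. These values hold for the lists as used here, whose completeness over this stretch could not be checked.

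Promoter peaks were then compared over all 10 genes, and 9 of them had a peak within 1 kb of a start in all 6 libraries. Of 19756 protein-coding genes, 45.8% had one. By mean −log10 q, CDK4, a kinase of the D-type cyclins, had the strongest promoter, CDKN2C the next and CCNE1 the third. The CDKN2C value came from a region shared with a start of FAF1, which cannot be assigned to one gene. The other CDKN2C promoter region called in all 6 libraries had a mean of 10.6. CDK6 had the lowest −log10 q of the 9, at 8.04 ± 2.62 beside 9.24 ± 1.67 for CCND2. By summit reads it was not the lowest. Its promoter region chr7:92463105-92463513 held 23 to 42 reads, above the CCND3 region chr6:41909056-41909857 (17 to 27) in every library. Neighbors in the order by −log10 q changed places in some libraries. CDKN2C was above CDK4 in replicate 1 of the unpurified libraries (48.4 against 43.5). CDKN2A was above CCNE1 in replicate 1 of the old buffer (26.1 against 21.5), and CDK6 above CCND2 in replicate 1 of the new purified libraries (12.5 against 8.49). Of the other 25 genes of the G1/S pathway, 20 had a promoter peak in all 6 libraries, 4 in some libraries and E2F2, which encodes an E2F factor, in none. CCNH, a subunit of the CDK-activating kinase, had the highest mean −log10 q of those genes at 61.1 ± 10.1, and their median was 15.8 against 13.6 for the 10 genes.

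**Figure D2:**
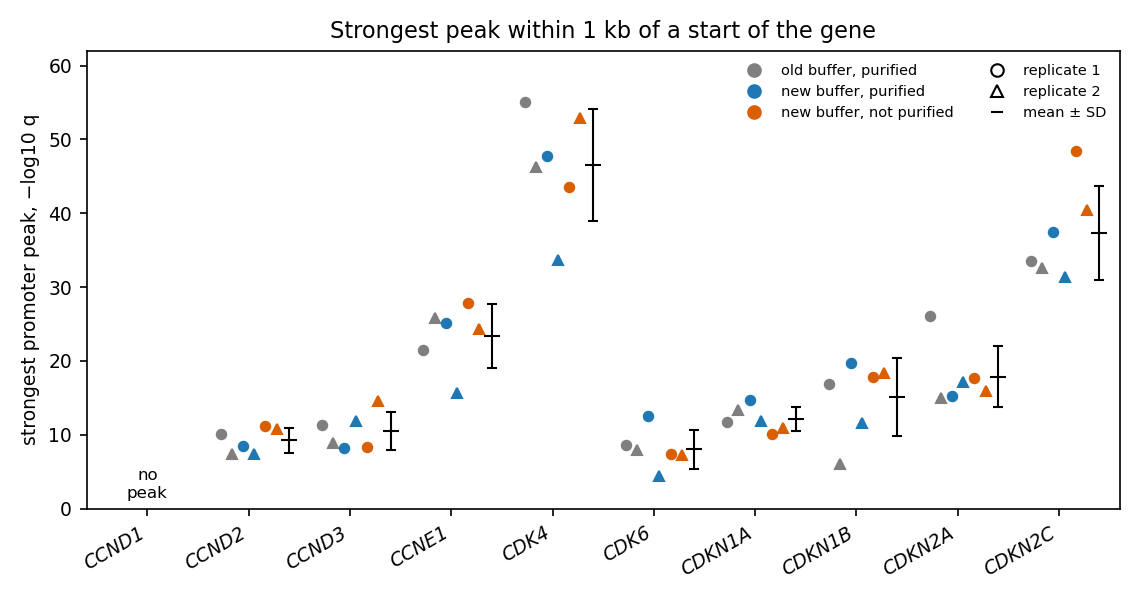
The −log10 q of the strongest peak within 1 kb of an annotated coding start, by gene and library. Colors mark protocols, circles and triangles mark replicates 1 and 2, and the black bars give the mean ± SD of the 6 libraries. CDK4 (33.7 to 55.0) and CDKN2C (31.4 to 48.4) stand above the other genes in every library, and CCND1 has no point. The CDKN2C points come from a region shared with a start of FAF1.

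At CDK4, on the minus strand of chromosome 12, the promoter region chr12:58145885-58146637 had −log10 q values of 55.0, 46.3, 47.7, 33.7, 43.5 and 52.9. Its summit held 63 to 89 reads and took ranks 362 to 1530 of the libraries' peaks. Replicate 2 of the new purified libraries, which had the shortest list, gave the lowest value. The summit lay 45 bp before the nearest start. A weaker promoter region at the most distant start, chr12:58148632-58148888, was also within 1 kb of a start of MARCHF9 and was called in 2 libraries. The window also held the promoter of the tetraspanin gene TSPAN31, chr12:58138274-58139287, which all 6 libraries called at 12.3 to 29.8, and a region at CYP27B1, chr12:58159046-58159271, in 1 library. Peaks covered 5.17% ± 1.13 of the CDK4 window and 2.35% ± 0.255 without the peaks at starts of other genes.

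CDKN2C encodes the p18 INK4 inhibitor of CDK4 and CDK6. Its strongest region, chr1:51425481-51426392, had −log10 q values of 33.5 and 32.6 in the old buffer libraries, 37.5 and 31.4 in the new purified ones, and 48.4 and 40.4 in the unpurified ones. The summit lay 481 bp before the first CDKN2C start and within a UTR of FAF1, a gene with a start there on the other strand, and the peak cannot be assigned to one of the genes. A further promoter region, chr1:51433695-51434549, was called in all 6 libraries at 7.36 to 15.8, and chr1:51434797-51435644 in 4 libraries at 2.64 to 7.59. An intergenic region 7086 bp after the nearest start, chr1:51442794-51443224, was called in both unpurified libraries and in no other library, with 17 and 13 reads.

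The cyclin E1 gene, CCNE1, had 2 regions and every library called both. The promoter region, chr19:30302157-30303121, had values of 21.5, 25.8, 25.2, 15.6, 27.9 and 24.3 in −log10 q, with 32 to 50 reads at a summit 209 bp before the nearest start. An intergenic region 7328 bp before that start, chr19:30295307-30295797, had values of 8.27 to 11.9 and 17 to 21 reads. Each library thus had 2 peaks in the CCNE1 window.

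The CDKN1A promoter region, at the gene of the p53 target p21, was chr6:36646154-36646870. Its −log10 q of 10.1 to 14.7 came from 29 to 33 reads, so its summit reads were alike in all 6 libraries. Regions 9188 bp before the nearest start, chr6:36634723-36635234, and 1793 bp after it, chr6:36648002-36648494, were each called in 5 libraries. The first was intergenic and the second lay in an exon of a transcript without a defined coding sequence.

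CDKN1B encodes p27. The promoter region chr12:12869749-12870592 had −log10 q values of 16.9, 6.0, 19.8, 11.6, 17.9 and 18.4, and replicate 2 of the old buffer libraries was the lowest, with 19 summit reads against 29 to 43 in the others. A stronger region of the window, chr12:12877793-12879068, lay at a start of APOLD1 after the end of the gene, at 12.9 to 26.9. The region chr12:12849475-12850295 lay at a start of the receptor gene GPR19, in an exon of a CDKN1B transcript without a defined coding sequence, at 10.2 to 15.8. Without peaks at starts of other genes the coverage of the window fell from 4.46% ± 0.914 to 1.31% ± 0.515. Between the GPR19 and CDKN1B starts, 13146 bp before the latter, the intron region chr12:12856902-12857430 was called in 3 libraries with 12 to 15 reads.

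CDKN2A has separate starts for p16 and for ARF, which inhibits MDM2. The region over the ARF start, chr9:21993939-21995625, was called in all 6 libraries, with −log10 q values of 26.1, 15.0, 15.3, 17.2, 17.7 and 16.0. The region over the p16 start, chr9:21974690-21975400, was called in 5 libraries at 7.50, 10.1, 4.43, 10.2 and 4.26, and replicate 2 of the old buffer libraries did not call it. In each library the ARF region was the stronger of the pair, and its summit held 37 to 52 reads against 12 to 20. The ARF start lies beside a start of the antisense gene CDKN2B-AS1, and ATAC-seq has no strand. A region in an intron of another annotated gene, 5820 bp after the nearest CDKN2A start, chr9:21964922-21965898, was called in all 6 libraries at 5.13 to 14.5. An intron region 7450 bp after a start, chr9:21986718-21987122, was called in 4 libraries, the old buffer and the new purified ones.

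CDK6, the other kinase of the D-type cyclins, had the longest window, with its strongest regions far from its starts. The window of 252 kb on chromosome 7 held 23 of the 53 regions, and 6 of the 23 were called in all 6 libraries. Per 100 kb it held 3.18 to 6.36 peaks in a library, beside 7.07 to 14.1 at CDK4 and 1.48 to 2.95 at CCND3. One of these 6 was a promoter region, chr7:92463105-92463513, with −log10 q values of 8.57, 5.22, 12.5, 4.44, 7.46 and 5.14. The other promoter regions were chr7:92465798-92466170 in 4 libraries, chr7:92462314-92462600 in 2 and chr7:92465119-92465482 in 1. The strongest region of the locus was not a promoter but chr7:92260573-92261473, in an intron 202227 bp after the nearest start, at 27.9, 28.8, 28.3, 15.3, 25.9 and 27.0 with 39 to 56 reads. In 5 of 6 libraries its value stood above 25, and replicate 2 of the new purified libraries was again the lowest.

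A further 2 regions of the CDK6 body were close to it in strength. The region chr7:92442608-92443429, in an intron 20351 bp after the nearest start, had values of 21.7, 22.7, 21.4, 21.3, 32.8 and 20.4. The region chr7:92271062-92272007, 191603 bp after the nearest start, had values of 17.3, 19.7, 28.0, 18.5, 21.9 and 27.4, and its summit lay in an exon of a long non-coding RNA gene inside CDK6. Each of these 3 regions exceeded every CDK6 promoter region in every library. Another 2 intron regions, named here after their values were seen, were called in all 6 libraries, chr7:92277360-92277993 at 4.58 to 16.9 and chr7:92438722-92439453 at 7.87 to 15.4. The remaining 14 non-promoter regions of the window were called in 1 to 4 libraries each.

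**Figure D3:**
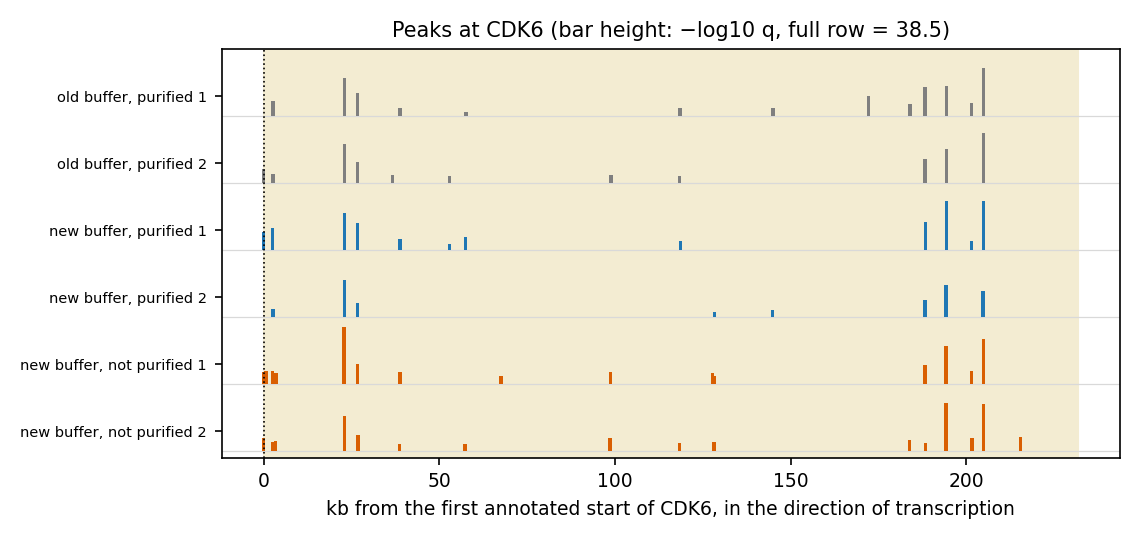
Peaks at CDK6, one row per library. The x axis gives kb from the first annotated start in the direction of transcription, bar height is the −log10 q of a peak, and the shaded area is the gene body. Tall bars recur in all 6 rows at about 23 kb, 194 kb and 205 kb on this axis, while the bars at the start are short.

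By share of the window the 10 genes ran from CDKN2A at 5.59% ± 0.428 through CDK4 at 5.17% ± 1.13, CDKN2C at 5.14% ± 1.30, CDKN1B at 4.46% ± 0.914, CCNE1 at 3.62% ± 0.288, CDKN1A at 3.21% ± 0.741 and CDK6 at 2.08% ± 0.337 down to CCND2, CCND3 and CCND1. The mean difference within a library was smaller than its SD between CDKN2A and CDK4, between CDK4 and CDKN2C, between CCNE1 and CDKN1A, and between CDK6 and CCND2, so these neighbors were not separated. CDKN2C exceeded CDKN1B by 0.682 ± 0.488 percentage points in 6 of 6 libraries, and CDKN1B exceeded CCNE1 by 0.841 ± 0.718 in 5 of 6. These differences were not tested. The order depended on the window: without peaks at starts of other genes CDKN2C fell to 2.95% ± 1.26, CDK4 to 2.35% and CDKN1B to 1.31%, all below CCNE1 at 3.62%, and with the gene body alone CDK4 was at 8.92% ± 1.11 and CCNE1 was at 1.09% ± 0.547. The measure falls with the length of a window that holds few peaks, and the windows ran from 28.3 kb at CDK4 to 252 kb at CDK6.

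**Figure D4:**
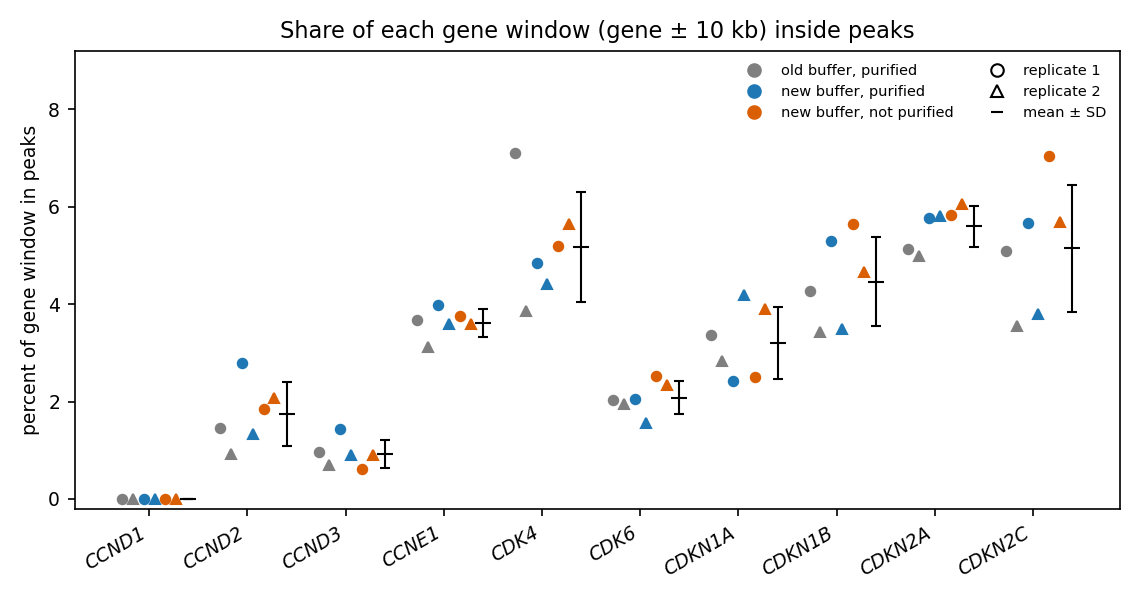
Percent of each gene window (the gene and 10 kb on each side) that lay inside peaks, by gene and library. Colors mark protocols, circles and triangles mark replicates 1 and 2, and black bars give the mean ± SD of the 6 libraries. CDKN2A lies between 4.99 and 6.05, CCND2 between 0.925 and 2.80, CCND3 between 0.617 and 1.43, and all 6 CCND1 points are at 0.

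Over all 10 windows, 21 of the 53 regions (39.6%) were called in all 6 libraries, beside 35.5% of all regions, and 9 (17.0%) were called in 1 library, beside 27.4%. Of 25 regions at a start of any gene, 14 were called in all 6, which is 56.0% beside 64.2% of all such regions. Of the 28 other regions, 7 were called in all 6, which is 25.0% beside 27.0%. Regions called in 1 library made up 17.9% of these 28, beside 31.8% of all such regions. The regions at a start of the gene itself numbered 20, with 11 in all 6 libraries, and the 22 intron regions outside promoters included 5.

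The motif letters were counted in the mean summit of every region and the 100 bases on each side of it, on both strands. SP (GGGCGG) was present in 17 of the 53 regions (32.1%, beside 19.2% of all regions), in 15 of the 25 at starts (62.5% of all regions at starts) and in 2 of the 28 others. AP-1 (TGANTCA) was present in 7 of the 28 regions away from starts, beside 17.8% of all such regions, and in none of the 25 at starts. Of these 7 AP-1 matches, 5 were in CDK6, 1 in CDKN1A and 1 in CDKN2A. CDK6 held 19 of those 28 regions, and its counts of any motif stand beside that share. RBPJ (TGGGAA), through which the viral EBNA2 protein reaches DNA, was present in 10 regions (18.9%, beside 15.9%), and NFY (CCAAT) in 15 (28.3%, beside 25.1%). NF-kB (GGGANTTTC or GGGGNTTTC) was present in 2 regions beside 5.69%, both in CDK6 introns, and RUNX (TGTGGTT) in 3 beside 10.7%, all in CDK6. IRF (GAAANNGAA) was present in 4 beside 10.8%, EBF1 (CCCNNGGGA) in 3 beside 4.71%, CTCF (AGGGGGC) in 4 beside 6.77% and CRE (TGACGTCA) in 1 beside 0.764%.

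No member region held the letters of ETS (CCGGAAG), present in 4.25% of all regions and in 13.9% of those at starts, of PU.1 (GAGGAAGT, 2.91%) or of E2F (TTTCGCGC or TTTGGCGC, 0.406%). This says only that these spellings were not in that window. The spellings of CTCF and SP can overlap, as in the CDK4 sequence above, as can those of NF-kB and RBPJ. The CCND2 region called in all 6 libraries held SP and NFY, and the CCND3 region of the short transcripts held SP.

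The protocols were compared as whole workflows to see whether the openness of these genes differed between them. Per library, 37 and 29 of the 53 regions were called in the old buffer libraries, 36 and 29 in the new purified ones, and 37 and 41 in the unpurified ones. Over all regions the same libraries called 64.9% and 60.0%, 65.9% and 51.9%, and 62.7% and 59.5%. The unpurified libraries were thus at or above the purified ones in the member counts and not over all regions, a difference that was not tested. Every library had promoter peaks at 9 of the 10 genes.

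Between the new purified and the old buffer libraries, 0 of 46 member regions were specific to either protocol, meaning called in both libraries of one protocol and in neither of the other. Over all regions 1.83% were specific to the new purified and 3.2% to the old buffer libraries. The unpurified libraries had 4 of 52 member regions that the old buffer libraries lacked (7.69%, beside 2.4% of all regions). These were the intergenic CDKN2C region, the CDKN1B intron region chr12:12856902-12857430, the CDK6 promoter region chr7:92462314-92462600 and the CDK6 intron region chr7:92337430-92337856. In the reverse direction the CDKN2A intron region chr9:21986718-21987122 was the only one (1.92%, beside 2.82%). Against the new purified libraries the unpurified ones had 3 of 50 specific regions (6%, beside 2.7%), the same CDK6 promoter and CDKN2C regions and the CDK6 intron region chr7:92367016-92367507. The new purified libraries had 2 (4%, beside 1.76%), the CDKN2A intron region and the CCND3 UTR region. By −log10 q all of these specific regions were in the lower part of their libraries, with at most 7.75 and a percentile of at most 40.7. By reads the CDK6 promoter region, with 31 and 30, was above the median summit of 22 of the unpurified libraries. With a −log10 q of at least 5 the 4 regions of the unpurified against the old buffer libraries became 2.

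The share of a window in peaks did not overlap between protocols for several genes, but 2 libraries against 2 cannot give an exact permutation p below 0.33. At CDKN2A, 5.13% and 4.99% in the old buffer libraries lay below 5.77% and 5.80% in the new purified and 5.83% and 6.05% in the unpurified ones. Of the 9 genes with a peak, CDKN2A alone (1 gene) was higher without overlap in the new purified than in the old buffer libraries. Over 15620 genes compared the share was 19.7%. Of the 9, 0 were lower, beside 9.83%. Against the old buffer libraries, 5 of 9 genes (CDKN2C, CDK6, CDKN2A, CCND2 and CDKN1B) were higher in the unpurified ones, beside 27.1% of 15664 genes compared. Of the 9, 0 were lower, beside 8.16%. These protocols differ in buffer and purification together. Against the new purified libraries, 4 of 9 genes (CDKN2C, CDK6, CDKN2A and CDK4) were higher in the unpurified ones, beside 17.7% of 15684 genes compared. Of the 9, 1 (CCND3) was lower, beside 10.6%. With a −log10 q of at least 5 the 5 genes became 3 and the 4 became 1, and with equal numbers of peaks they were 5 and 2. The difference between unpurified and old buffer libraries was 2.03 percentage points at CDKN2C (6.36% ± 0.966 against 4.33% ± 1.09) and 0.453 at CDK6 (2.44% ± 0.137 against 1.98% ± 0.0551), each with an exact p of 0.33.

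Summit heights could be compared for the 21 member regions that all 6 libraries called. In the limma fit of log2 summit reads over 20064 regions, 0 of the 21 passed an adjusted p of 0.05 in any of the 3 contrasts. Over all regions 9 passed between the new purified and the old buffer libraries (0.0449%), 4 between the unpurified and the old buffer libraries (0.0199%) and 0 between the new protocols (0%). At an unadjusted p below 0.05 there were 1, 2 and 0 of the 21, beside 1722, 1693 and 865 of 20064. The median log2 difference of the 21 was -0.0011, 0.04 and -0.0022, beside 0.03, 0.04 and 0.01 over all regions.

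The CDKN1B window held 2 of the 3 regions with an unadjusted p below 0.05, and CDK6 the other. The APOLD1 start in the CDKN1B window was higher by 0.44 ± 0.18 (SE, log2) in the new purified than in the old buffer libraries (limma adjusted p = 0.469). In reads, its summit had 45 and 32 in the old buffer libraries, 53 and 48 in the new purified ones, and 43 and 52 in the unpurified ones, so that replicate 2 of the old buffer was below the rest. The CDKN1B promoter was 0.46 ± 0.23 higher in the unpurified than in the old buffer libraries (limma adjusted p = 0.585), where replicate 2 of the old buffer had 19 reads. The CDK6 region chr7:92277360-92277993 had a log2 difference of -0.60 ± 0.25 between unpurified and old buffer libraries (limma adjusted p = 0.495), with 26 and 19 reads against 34 and 30. For CCND2, the region in all 6 libraries differed by 0.10 ± 0.23, 0.30 ± 0.23 and 0.20 ± 0.23 in the 3 contrasts. None of these differences passed the adjusted threshold, which does not show that the protocols were alike.

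**Figure D5:**
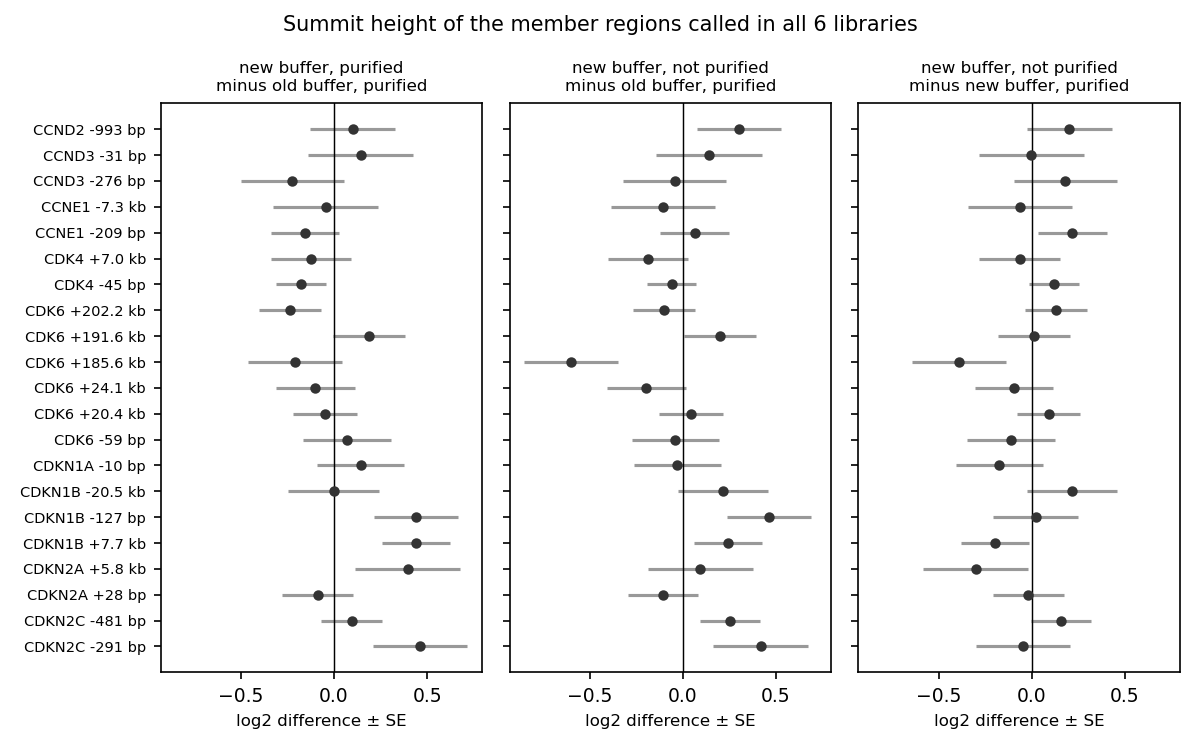
Log2 differences in summit reads between protocols for the 21 member regions called in all 6 libraries, 1 panel per contrast, with the SE of the limma fit as bars. Rows are labeled by gene and distance of the summit from the nearest annotated start. Most points lie within 1 SE of 0 or near it. The extremes are -0.60 at a CDK6 intron region in the unpurified against the old buffer libraries and 0.46 at a CDKN2C promoter region in the new purified against the old buffer libraries.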

How the data were processed

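The deposited data were 1 narrow peak list per library from bulk ATAC-seq of fixed GM12878 cells. Per the submitters' processing notes and the methods, the authors mapped reads to hg19 with Bowtie2 2.1.0, retained proper pairs above a mapping quality limit, discarded duplicates with Picard 1.79 as well as mitochondrial reads, ran MACS2 in its narrow mode with a q limit of 0.01 and left out blacklisted regions and nuclear copies of mitochondrial DNA. No MACS2 version is given in the sources used here. The methods describe merged reads per condition, but each list here belongs to 1 library. The deposited columns are a score, the fold enrichment at the summit against local background (a ratio), the −log10 p value and the −log10 q value, all as the authors computed them. The score was not used further. Purification of the old and new purified libraries was taken from the study's text, and the groups from the labels.

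The genome sequence was GRCh37, the same build as hg19, and genes were those of GENCODE version 44 lifted to it. MACS2 derives fold enrichment and p value from the reads at the summit and the background, so both were solved for each peak, within a tolerance of 0.001 in −log10 p for 100% of peaks. Read totals were not analysed here; the lowest background of a library, 1.51 to 1.86 reads, is a relative depth. Peaks of all libraries were merged into regions where they overlapped or adjoined, and a library called a region by at least 1 bp. The summit of a region is the mean over the libraries that called it. A promoter was taken as 1 kb up- and downstream of a protein-coding transcript start. A percentile is the share of peaks of the same library with a −log10 q at or below that of the peak.

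Cyclin D genes were compared within libraries by an exact two-sided sign-flip permutation test, adjusted over 3 pairs by the Benjamini-Hochberg method. Windows were compared between protocols by an exact two-sided permutation test of 2 libraries against 2. Summit reads were compared with limma 3.58.1 (R 4.3.3, eBayes with a trend) on the log2 scale after centring on each library's median, in 1 fit of all 6 libraries over the regions that all 6 called, with Benjamini-Hochberg adjustment over all of these. The interval functions, the solution for summit reads and the limma fit were tested on simulated data. Alternatives were a −log10 q of at least 5, the strongest 30136 peaks of each library, the gene body alone, 10 kb around starts, peaks at starts of other genes left out, promoters of 500 bp and 2000 bp, regions covered by peaks over at least 50% of their length, peaks within 200 bp merged, quantile normalization, fold enrichment in place of reads, libraries of the same number as a block, and each library left out. The count of windows that did not overlap was repeated under the first 2 of these after the data were examined. Covered bases were added at that time too.

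Regions named were every promoter region of a gene, the 3 strongest others of a window by mean −log10 q over the 6 libraries with missing peaks as 0 (5 for cyclin D genes), and every region specific to 1 protocol. One marker gene is not reported here. The genes, lists, motifs and rules were chosen with earlier results of these data known. Python 3.11.15 with SciPy 1.17.1 and samtools 1.23.1 were used.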

Additional observations from a re-analysis of the deposited data

How the results depend on the processing

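CCND2 and CCND3 stayed above CCND1 under every alternative, as any gene with a peak must. CCND2 against CCND3 kept its direction and its p of 0.03125 for the −log10 q minimum, an equal number of peaks, the gene body, peaks at other starts left out and peaks per 100 kb. With 10 kb around starts the difference was 1.14 percentage points and its exact permutation p rose to 0.0625, and by the percentile of the strongest peak it reversed to -6.23 points. The cause was not tested. By covered bases, an alternative chosen after the data were examined that leaves out the division by window length, it reversed to -274 bp (exact permutation p = 0.09375). Leaving out each library gave differences of 0.715 to 0.942, 1.53 to 1.90 from CCND1 for CCND2 and 0.814 to 0.977 from CCND1 for CCND3, values without a test because 5 libraries cannot give an exact p below 0.0625. The 9 genes with a promoter peak in all 6 libraries became 8 with promoters of 500 bp, without CCND2, and 8 with a −log10 q of at least 5, without CDK6, and stayed 9 under the other alternatives. The 21 member regions called in all 6 libraries became 13 of 53 when at least 50% of a region had to lie in peaks, and stayed within 1.5 times under the others.

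The 4 member regions of the unpurified but not the old buffer libraries became 2 under both the −log10 q minimum of 5 and equal numbers of peaks, and the 2 of the new purified but not the unpurified libraries became 1 under both. For the windows without overlap, in settings chosen after the data were examined, the 1 gene higher in the new purified than in the old buffer libraries became 3 with equal numbers of peaks, the 5 higher in the unpurified than in the old buffer libraries became 3 with the −log10 q minimum, and the 4 higher in the unpurified than in the new purified libraries became 1 with the minimum and 2 with equal numbers. The cause of these changes was not tested. For summit height, the regions past the threshold went from 9 to 5 with quantile normalization and 1 with fold enrichment (new purified against old buffer), and from 4 to 1 with fold enrichment (unpurified against old buffer). Leaving out a library gave 1 to 15, 0 to 10 and, between the new protocols, 0 to 1. The higher ends came without replicate 1 of the new purified libraries, the 1 of the first contrast without replicate 2 of the old buffer, and the 0 of the second without replicate 1 of the old buffer or either unpurified library. No alternative called a member region. Replicate numbers did not pair the libraries, since the deviations of same-numbered libraries correlated at -0.0026, 0.015 and -0.0042 over 20064 regions. With the replicate number as a block, 10, 6 and 0 regions passed in limma, and 0 member regions.

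The lists set the depth: no summit under 8 or 9 reads is listed, and where the local background is higher the limit is higher too. At CDK4, chr12:58148632-58148888 had 25 reads in replicate 2 of the unpurified libraries, at a −log10 q of only 3.41. A region missing from a library may thus be open below the q limit, in places with more than 9 reads. Window shares moved by more than 1 SD for 7 of 10 genes with 10 kb around starts, 6 with the gene body alone and 4 without peaks at other starts, and for 0 with the −log10 q minimum or an equal number of peaks.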
